A study of Drosophila melanogaster with 2 samples.

Results

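Of 6176 peaks in the list called on both chm-eGFP replicates together, 202 (3.27%) had their summit within 500 bp of the start of a long non-coding RNA (lncRNA) gene. A lncRNA gene is one whose transcript is long and codes for no protein, taken here as an Ensembl non-coding RNA gene with a lncRNA or CR symbol, and its start is its 5' end. Of these peaks, 143 (2.32% of all peaks) lay within 500 bp of no protein-coding transcript start and are called lncRNA-only peaks. The other 59 (0.955%) also lay within 500 bp of a protein-coding start and are called shared peaks. The rest of the list held 2819 peaks at a coding start only (45.6%) and 3155 at neither kind of start (51.1%). The 202 peaks marked 183 of 1947 annotated lncRNA genes, 134 of them with at least 1 lncRNA-only peak and 52 with at least 1 shared peak.

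The assay was chromatin immunoprecipitation sequencing with an antibody against GFP, on sonicated chromatin of whole Drosophila melanogaster embryos aged 0 to 24 h. All embryos carried chameau (chm) fused to eGFP, and the 2 samples are biological replicates of this single group. Neither the promoter of the transgene nor the state of the native chm gene is stated in the labels, whole embryos pool all cell types, and the control that the labels name was not used here. Thresholded lists keep peaks past a limit on the irreproducible discovery rate (IDR), which measures how well peak ranks agree between sets of peaks. The list of replicate 1 held 3554 such peaks and that of replicate 2 held 4106, and the conservative list of both held 4202. The lists give no read totals, so depth is unknown, and with 1 group no comparison between conditions or test was possible. Peak signal is the peak caller's own value, on a scale that is not given, and values of the replicates come from each replicate's own list of ranked peaks of any rank.

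Chameau belongs to the MYST enzymes, which acetylate histone tails, and it is linked to both gene activity and silencing in flies. Fly lncRNA genes include the roX RNAs of dosage compensation, the primary transcripts of many microRNAs, precursors of piRNAs, transcripts of the Hox complexes, and a large number of transcripts with a CR number and no known function. Many are short, have a single exon and are known only from sequenced RNA.

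The summit sequences of 9 lncRNA-only peaks are shown as examples. They include some of the strongest signals at lncRNA starts and precursors of well-studied microRNAs (CR43334 for bantam, CR45919 for mir-124). Also included are flam and roX2, the 2 with a peak among the lncRNA genes listed by symbol for known functions further on. Each sequence is 151 bases from the RefSeq release 6 genome (dm6), centred on the summit and written 5' to 3' on the strand of the lncRNA gene. Capitals mark a match, on either strand, to any of the 10 motifs listed with the motif shares further on.
CR31044, chr3R:29214371-29214521, plus strand: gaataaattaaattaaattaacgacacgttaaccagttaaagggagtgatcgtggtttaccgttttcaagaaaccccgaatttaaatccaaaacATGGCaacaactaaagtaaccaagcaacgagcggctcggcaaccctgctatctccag
CR31840, chr2L:14024015-14024165, minus strand: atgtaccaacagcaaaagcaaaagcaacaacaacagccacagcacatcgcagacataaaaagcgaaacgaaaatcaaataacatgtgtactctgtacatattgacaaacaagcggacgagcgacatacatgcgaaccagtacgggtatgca
CR44619, chrX:12752284-12752434, plus strand: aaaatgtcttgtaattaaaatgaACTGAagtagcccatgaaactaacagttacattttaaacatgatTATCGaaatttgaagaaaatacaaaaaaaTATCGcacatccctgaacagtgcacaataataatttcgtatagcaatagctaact
CR44363, chr3L:11405947-11406097, plus strand: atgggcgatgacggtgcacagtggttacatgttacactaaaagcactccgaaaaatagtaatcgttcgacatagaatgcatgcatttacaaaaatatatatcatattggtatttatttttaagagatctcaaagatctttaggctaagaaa
CR45588, chr3R:5053723-5053873, minus strand: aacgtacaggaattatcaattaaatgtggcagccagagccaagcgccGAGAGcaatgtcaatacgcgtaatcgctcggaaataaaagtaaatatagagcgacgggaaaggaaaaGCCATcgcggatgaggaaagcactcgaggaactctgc
CR43334, chr3L:628467-628617, plus strand: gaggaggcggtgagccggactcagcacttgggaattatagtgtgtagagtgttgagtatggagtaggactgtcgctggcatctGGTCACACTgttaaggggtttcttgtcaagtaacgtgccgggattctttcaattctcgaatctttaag
CR45919, chr2L:17560785-17560935, plus strand: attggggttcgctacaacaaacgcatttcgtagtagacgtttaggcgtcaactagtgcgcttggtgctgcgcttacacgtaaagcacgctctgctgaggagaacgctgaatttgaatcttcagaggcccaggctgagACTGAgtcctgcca
flam, chrX:21631642-21631792, plus strand: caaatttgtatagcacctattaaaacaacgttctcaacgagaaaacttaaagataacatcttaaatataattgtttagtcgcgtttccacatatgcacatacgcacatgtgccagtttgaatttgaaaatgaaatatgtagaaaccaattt
roX2, chrX:11578957-11579107, plus strand: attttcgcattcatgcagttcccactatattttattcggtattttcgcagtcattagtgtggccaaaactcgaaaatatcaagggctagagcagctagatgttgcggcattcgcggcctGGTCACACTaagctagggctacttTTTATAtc
The sequences of CR43334 and roX2 both hold the core promoter letters known as motif 1, GGTCACACT, and these were the only 2 of the 143 lncRNA-only peaks that did. CR31840, CR44363 and flam held no match to any of the 10 motifs in these 151 bases.

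The strongest lncRNA-only peak lay at CR31044, the precursor gene of mir-279 and mir-996, microRNAs that share a seed and act in the olfactory system. Its peak (3R, 29214306 to 29214584) had its summit 116 bp upstream of the start, 5726 bp from the nearest coding start, that of the translation elongation subunit eEF1gamma. Signal there was 444 in replicate 1 and 348 in replicate 2 (mean 396 ± 67.9, SD, n = 2), and 779.7 in the pooled list. The replicates were close at this peak, unlike at the next.
CR31840, a 378 bp single-exon gene, had a peak (2L, 14023952 to 14024201) with its summit 9 bp inside the gene and 2911 bp from the start of hll. Its signal was 509.6 in replicate 1 and 188 in replicate 2 (mean 349 ± 227), with 689 in the pooled list, so that replicate 1 was 2.71 times replicate 2. CR44339, a single-exon gene, had a peak (2R, 12985068 to 12985333) with its summit 183 bp upstream and 4190 bp from the start of the Polycomb group gene Psc. There the signal was 330.5 in replicate 1 and 362 in replicate 2 (346 ± 22.3), the smallest relative spread of these 3 peaks, with 682 in the pooled list. Those 3 peaks and 1 at CR44619 were the 4 lncRNA-only peaks among the 100 strongest of the whole list. They made up 2.80% of the 143 lncRNA-only peaks (Wilson interval 1.09 to 6.97%). The same share was 1.62% for all peaks, 2.09% for peaks at a coding start only and 1.11% for peaks at neither kind of start. All of these shares lie within that interval, and the differences were not tested.

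CR44619, a gene of 3 exons on X lying outside coding genes, had 2 of the 6 strongest peaks, on either side of its start and 979 bp apart. The summit 492 bp inside the gene had a signal of 320.1 in replicate 1 and 214 in replicate 2 (533 in the pooled list). The summit 487 bp upstream had 127 in replicate 1 and 222 in replicate 2 (357 in the pooled list), so the order of the replicates was opposite at the 2 peaks of the same gene. CR44363, a single-exon gene on 3L, had a summit 487 bp inside the gene, near its 3' end, with a signal of 244 in replicate 1 and 159.9 in replicate 2 (403 in the pooled list).

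The next strongest peaks had pooled signals from 238 to 311. CR44222 lies within the gene of the chromatin remodeller kismet (kis), on the opposite strand, and had its summit 24 bp inside its start, with 186 in replicate 1 and 97.1 in replicate 2 (283 pooled). CR45588 had its summit 60 bp upstream of its start and 32914 bp from the start of corto, which encodes a partner of Polycomb and trithorax group proteins. Signal at CR45588 was 218 in replicate 1 and 58.6 in replicate 2 (277 pooled), the widest ratio of the 15 strongest, at 3.72, and its peak was in the thresholded list of replicate 1 and not in that of replicate 2. The peak at CR42657 had its summit 405 bp upstream of that start and 718 bp from the start of nejire (nej), the fly CBP acetyltransferase, with 119 in replicate 1 and 153 in replicate 2 (272 pooled). CR45997 lies within the gene of the splicing factor muscleblind (mbl), on the same strand, and had its summit 390 bp inside, with 182 in replicate 1 and 91.6 in replicate 2 (260.0 pooled).
The other 5 of the 15 strongest were at CR44676 (311), CR44867 (279.8), CR34335 (277), CR44366 (263) and CR44380 (238). Their nearest coding starts were those of CG9300, CG13244, ppk8, CG42808 and CG5550, and at CR44619 and CR44363 those of CG4004 and CG44362. The roles given for some neighbours are background, and the share of chromatin genes among neighbours was not counted. All 15 peaks were in the conservative list, and 14 of them were in the thresholded lists of both replicates. Over all pooled peaks these shares were 61.9% and 31.3%. The 15 were chosen by high pooled signal, and equally strong peaks of other classes were not counted for comparison.

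**Figure D1:**
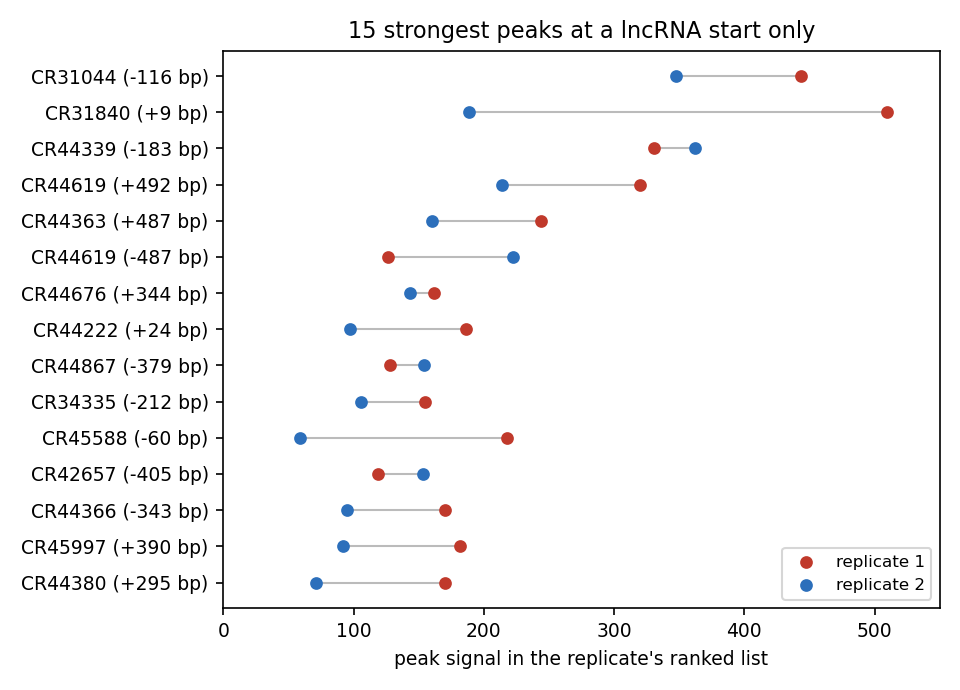
Peak signal (x axis, the caller's own scale) of the 15 strongest lncRNA-only peaks in the ranked list of each replicate, by pooled signal from top to bottom, with the position of the summit from the gene start in bp (negative is upstream). The replicates stand furthest apart at CR31840, 509.6 in replicate 1 and 188 in replicate 2, and replicate 2 is the higher at CR44339, CR44867, CR42657 and the upstream peak of CR44619.

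A smaller share of lncRNA genes than of coding genes had a peak at the start. The lncRNA genes were split by the distance of their start from the nearest coding start. Of 1690 lncRNA genes over 500 bp from any coding start, 134 had a pooled peak within 500 bp of the start (7.93%, 95% Wilson interval 6.73 to 9.31%). A lncRNA-only peak was found at 127 of the 1690 (7.51%), so the rest of the 134 had only a peak shared with a coding start. Of 257 lncRNA genes within 500 bp of a coding start, 49 had one (19.1%, 14.7 to 24.3%). Of 13986 protein-coding genes, 18.9% had one (18.2 to 19.5%), so only the lncRNA genes beside a coding start came near the coding share. The replicate lists gave the same order: for lncRNA genes away from coding starts 5.62% in replicate 1 and 5.09% in replicate 2 (5.36 ± 0.377%, SD, n = 2), and for coding genes 11.8% in replicate 1 and 15.1% in replicate 2. The intervals cover counting error only, and the differences between these shares were not tested.
The difference was small in the ranked list of any rank, where 62.8% of the lncRNA genes away from coding starts had a peak, and 67.5% of coding genes. That list also holds weak peaks, and the share at positions away from starts was not counted. The small difference there thus says little about how both kinds of start compare.

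In the pooled list, peak density around lncRNA starts was highest just inside the gene. In the 250 bp after a lncRNA start away from coding starts there were 121.6 summits per Mb (51 summits), and in the 250 bp before it 85.0 per Mb (35 summits). Between 1000 and 3000 bp to either side the density was 39.9 to 65.9 per Mb over 16 bins, with a median of 53.8. Around coding starts the order was the other way, with 361 summits per Mb in the 250 bp before the start and 276 in the 250 bp after it, against a flanking median of 58.0. The bins after and before a lncRNA start thus both lay above the flanking bins, at less height than around coding starts. Neither difference was tested, and the bins were not counted in the replicate lists. The upstream share of lncRNA-only summits was 42.9% in replicate 1, 50% in replicate 2 and 46.6% in the conservative list. The lean to the downstream side was thus not steady.

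**Figure D2:**
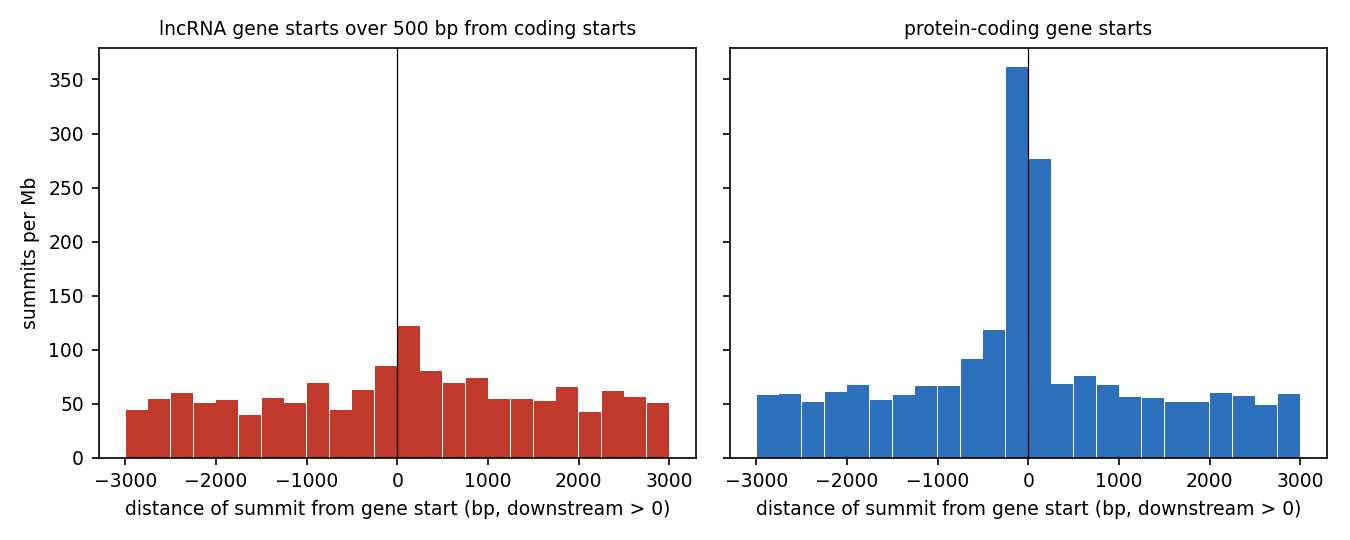
Pooled summits per Mb (y axis) in bins of 250 bp by distance from the gene start in bp (x axis, downstream positive), around lncRNA starts over 500 bp from any coding start, counting only bases over 500 bp from a coding start (left), and around protein-coding starts (right). The highest lncRNA bin holds 121.6 summits per Mb, just downstream of the start, and the highest coding bin holds 361, just upstream.

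Summed over the genome, the bases within 500 bp of a lncRNA start and of no coding start made up 1.18% of the arms and held 2.32% of the summits on them, 1.97 times their share of bases. Shared bases held 5.10 times their share, bases at coding starts only 4.16 times, and bases at neither 0.581 times. In density this was 88.3 summits per Mb at lncRNA starts only, 229 at shared starts, 187 at coding starts only and 26.1 elsewhere.

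Summits of lncRNA-only peaks were spread over the whole window, those of coding starts less so. The distances differ in kind: those to coding starts run to the nearest of all transcript starts, those to lncRNA genes to the annotated 5' end only. Several starts per coding gene can shorten the distance, and the part of this in the differences below was not tested. The annotated lncRNA starts were not checked against measured transcription starts. The median distance from summit to start was 216 bp for lncRNA-only peaks, 181 bp for shared peaks (from the lncRNA start) and 79 bp for peaks at coding starts only. Within 100 bp of the start lay 27.3% of lncRNA-only summits (20.6 to 35.1%) and 59.3% of the coding-only summits (57.5 to 61.1%). In the replicate lists these were 19.4% in replicate 1 and 30.4% in replicate 2 for lncRNA-only peaks, and 59.8% in replicate 1 and 60.9% in replicate 2 for all peaks at coding starts, so the replicates kept the order although they differed from each other at lncRNA starts. Of the lncRNA-only summits 60 of 143 were upstream of the start (42.0%, 34.2 to 50.2%), against 53.2% of the coding-only ones. This share was less steady, at 42.9% in replicate 1 and 50% in replicate 2. The peaks nearest the limit of 500 bp were, just inside it, CR44371 at 495 bp downstream (signal 143), CR45277 at 496 bp upstream (88.4) and CR42736 at 497 bp downstream (127), and, just outside it, CR44828 at 505 bp upstream (69.5), CR44723 at 510 bp downstream (63.4) and CR44587 at 512 bp upstream (66.2). The 3 peaks just inside had higher signals than the 3 just outside.

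The signal of lncRNA-only peaks was close to that of the whole list. The median pooled signal was 82.7 for lncRNA-only peaks (quartiles 62.0 and 123), 96.9 for shared peaks, 85.0 at coding starts only, 74.0 at neither, and 79.1 over all peaks. In the thresholded lists of the replicates, the median of lncRNA-only peaks was 1.01 times the list's median in replicate 1 and 0.967 times in replicate 2. The same ratio at coding starts only was 1.05 in replicate 1 and 1.04 in replicate 2, and at neither kind of start 0.954 in replicate 1 and 0.950 in replicate 2. Each of these classes thus stayed close to the list's median in both replicates. Shared peaks had 0.998 in replicate 1 and 1.17 in replicate 2.

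**Figure D3:**
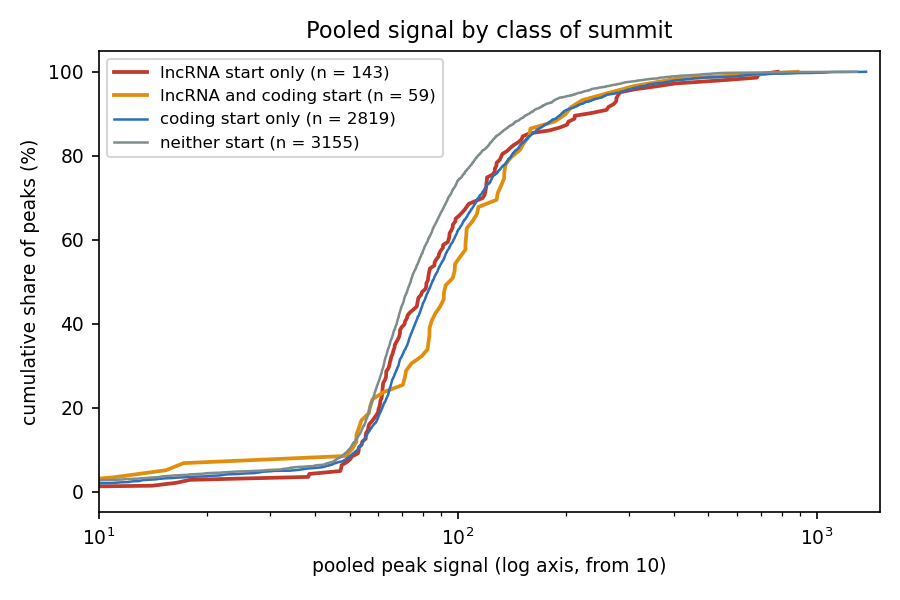
Cumulative share of peaks in percent (y axis) by pooled peak signal (x axis, log scale, from 10) for 143 lncRNA-only, 59 shared, 2819 coding-only and 3155 other peaks. The lncRNA-only curve runs close to the coding-only curve, with medians of 82.7 and 85.0, and the curve of peaks at neither start lies to the left, with a median of 74.0.

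Of the lncRNA-only peaks 86 of 143 had their summit in a conservative peak (60.1%, 52.0 to 67.8%), near the 61.9% of all pooled peaks, and 72.9% of the shared peaks did. In the thresholded lists of both replicates were 48 of 143 lncRNA-only peaks (33.6%, 26.3 to 41.6%), 45.8% of the shared peaks, 39.0% of the coding-only peaks, 24.0% of the peaks at neither start and 31.3% of all peaks. The lncRNA-only share is thus near the background of the list in each of these measures. In the ranked lists of any rank, 129 of 143 lncRNA-only peaks (90.2%) were covered in both replicates, near the 87.7% of all pooled peaks. Across these 129 peaks the Spearman correlation between the replicates' signals was 0.351, against 0.550 across 2469 coding-only peaks and 0.259 across 2770 peaks at neither start, as a description of peaks that share the same libraries. Replicate 1 had the higher value at 82 of 129 lncRNA-only peaks (63.6%, 55.0 to 71.4%), at 48.8% of the coding-only peaks and at 63.1% of the peaks at neither start. These differences were not tested.

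**Figure D4:**
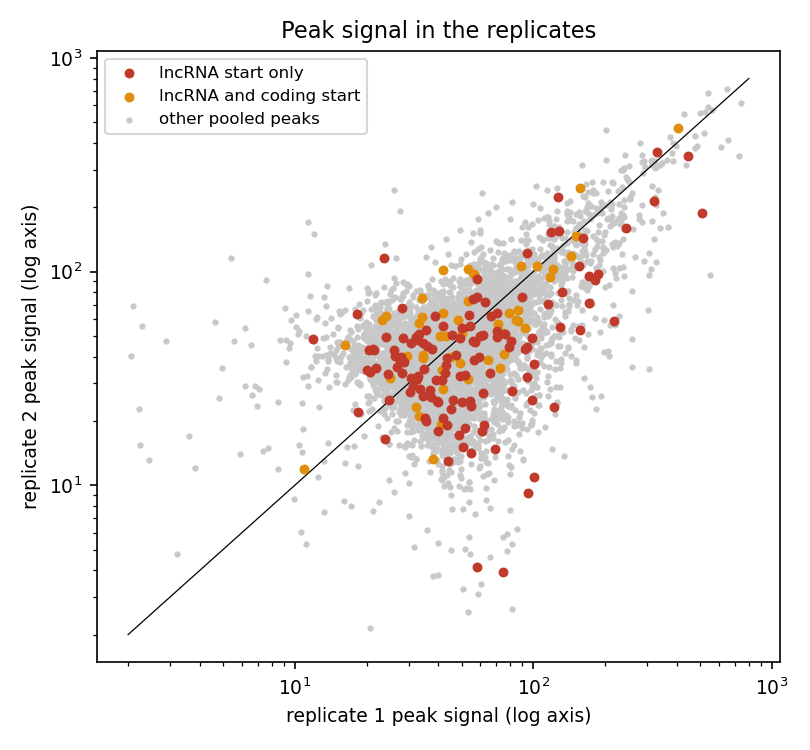
Peak signal in the ranked list of replicate 1 (x axis, log scale) and replicate 2 (y axis, log scale) for lncRNA-only peaks, shared peaks and all other pooled peaks that both replicates cover, with the line of equal values. The 129 lncRNA-only peaks scatter around the line within the cloud of the other peaks (Spearman correlation 0.351), with 63.6% of them below it.

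A larger share of the lncRNA genes that carry microRNAs than of other lncRNA genes had a peak, a difference that was not tested. Of 33 lncRNA genes away from coding starts that hold an annotated microRNA gene on the same strand, 12 had a pooled peak at the start (36.4%, 22.2 to 53.4%), against 122 of 1657 other lncRNA genes (7.36%, 6.20 to 8.72%). The order was the same in each replicate, with 8 of 33 against 87 of 1657 in replicate 1 (24.2% and 5.25%) and 9 of 33 against 77 of 1657 in replicate 2 (27.3% and 4.65%). The conservative list gave 7 of 33 (21.2%, 10.7 to 37.8%) against 92 of 1657 (5.55%). The microRNA precursor genes were also longer, with a median of 6494 bp against 659 bp. Among genes of at least 5000 bp, 7 of 20 precursor genes (35%) and 5 of 48 others (10.4%) had a peak, and the part of length in the difference was not tested beyond this.
After CR31044, the strongest of the 12 were at CR43651 (mir-14, which restrains cell death, 202), CR43334 (bantam, which drives growth and blocks cell death, 158), CR45919 (the neuronal mir-124, 137), CR43857 (mir-275, 132) and CR43650 (mir-8, a regulator of body growth, 117). Weaker ones were at CR43314 (mir-bft, 96.1), CR42651 (mir-10 of the Hox complex, 91.0), CR45916 (mir-9a of sense organ formation, 75.3), CR45910 (mir-1000, 67.6), CR43459 (mir-277 and mir-34, 65.9) and CR45361 (the muscle microRNA mir-1, 60.1). In the replicates, CR43334 had 89.6 in replicate 1 and 76.0 in replicate 2, CR45919 had 92.7 in replicate 1 and 43.6 in replicate 2, and CR45361 had 34.5 in replicate 1 and 26.2 in replicate 2. At CR43651 the pooled summit lay in a ranked peak of replicate 2 (146) and in none of replicate 1, whose best ranked peak within 500 bp of the start had a signal of 110.
The 21 precursor genes without a pooled peak included let7C, the source of the timing microRNA let-7, iab4 and iab8 of the bithorax complex, and CR44504, the precursor of the early zygotic mir-309 group. None of the 3 lncRNA genes that hold a snoRNA had one.

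Of 30 lncRNA symbols listed for their known functions, 15 were in the annotation under that symbol, and 2 of these genes had a peak at the start. The count covers only genes found by symbol. The listed bft was not found, while CR43314, which holds mir-bft, had a peak. With 9.40% of all 1947 lncRNA genes having one, 2 of 15 is near the share of lncRNA genes at large. The piRNA precursor flam, which silences transposons in the ovary, had a summit 174 bp upstream of its start, with a signal of 50.1 in replicate 1 and 24.6 in replicate 2 (72.6 pooled). It was in the conservative list and in the thresholded list of replicate 1 only. The dosage compensation RNA roX2 had a summit 33 bp upstream of its start, with 34.7 in replicate 1 and 34.8 in replicate 2 (62.0 pooled). It was in the conservative list, and in neither thresholded list of a single replicate. Its partner roX1 had no pooled peak within 500 bp, with the nearest summit 5961 bp away and a best ranked peak of 34.0 at the start.
Also without a pooled peak at the start were the heat shock RNA Hsromega (best ranked peak 43.2), acal of dorsal closure (45.1), noe (42.2), bxd of the bithorax complex (28.7), yar (17.4) and dntRL (17.2), and CRG, TS14, cherub, iab8, let7C and sphinx had no ranked peak there in the ranked list of both replicates. The long genes iab8 and bxd held summits inside their bodies, 10 in iab8 (the strongest 125) and 2 in bxd (the strongest 99.0). The bodies of the other listed genes found held none. Summits per length of gene body were not compared with the whole list, so these counts cannot be called high or low.

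The largest class of shared peaks lay at a lncRNA and a coding gene that point away from each other. Of the 59 peaks, 30 had the pair of starts in this divergent orientation (median distance between the starts 175 bp, median signal 88.0), 14 in convergent orientation (102 bp, signal 90.3) and 15 on the same strand (165 bp, signal 135). Some pairs of genes held several of these peaks, so the counts are of peaks and not of pairs. The orientation of all lncRNA genes near a coding start was not counted, so the split cannot be called particular to genes with a peak. The coding start was nearer the summit at 35, the lncRNA start at 20, and both were equally near at 4. The strongest shared peak lay 131 bp upstream of mRpL41, a mitochondrial ribosomal protein gene, and 447 bp downstream of the start of CR44463, past the 3' end of this short gene, with a signal of 404 in replicate 1 and 469 in replicate 2 (886 pooled). This was above every lncRNA-only peak.
The peak of CR44120 and the transporter gene SLC5A11 had 157 in replicate 1 and 245 in replicate 2 (406 pooled). The lncRNA gene enrr starts at the same base as the neuronal RNA-binding gene elav, and their common peak 255 bp upstream had 151 in replicate 1 and 147 in replicate 2 (311 pooled). The next 5 were at CR44149 with brwl (262), CR33963 with the mRNA decay factor Tis11 (223), CR44762 with the F-box gene Ppa (207), CR44966 with the ribosomal protein gene RpL22 (199.5) and CR45962 with the teneurin Ten-m (186), and both replicates covered each of them.

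The 134 lncRNA genes with a peak and a start away from coding starts resembled those without in position and structure. They lay outside coding genes in 74.6% of cases against 74.9%, had a single exon in 60.4% against 64.5%, and had a median length of 654 bp against 672 bp. The nearest coding start was at a median of 3665 bp for genes with a peak and 4496 bp for those without. By distance to the nearest coding start, the share with a peak was 8.09% from 500 to 1000 bp, 10.4% from 1000 to 2500 bp, 8.67% from 2500 to 5000 bp, 6.20% from 5000 to 10000 bp and 6.51% beyond. These shares have intervals that overlap one another. By arm it was 7.11% on X, 7.51% on 2L, 9.31% on 2R, 8.10% on 3L and 8.09% on 3R, and 0 of 12 genes on chromosome 4.

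Some lncRNA-only peaks lay close to one another. Within 2000 bp of another lay 40 of the 143, in 18 groups, and 14 genes had 2 or more. The same count was not made for all pooled peaks, so grouping cannot be called particular to lncRNA-only peaks. The group at CR31840 and CR45352 held 3 peaks with signals between 82.7 and 689, and those at CR43459, CR46036 and CR45541 held 3 each. On 3L, 2 summits (signals 121 and 119) lay at the starts of CR44714, CR44715 and CR44717. The nearest coding start, 3796 and 4671 bp away, was that of scyl, an inhibitor of TOR signalling. Peaks of a group that lie this close can share fragments and are not independent.
The nearest coding gene of 6 lncRNA-only peaks (4.20%, 1.94 to 8.85%) was in a list of 109 developmental transcription factor and signalling genes (105 found in the annotation), against 3.93% of all pooled peaks, so the share is near that of the list. These were CR45643 near tara (133), CR42651 (91.0) and CR45915 (50.8) near the Hox gene Dfd, with summits 24645 and 19081 bp from its start, CR46454 near salm (61.7), CR44526 near hry (61.0) and CR44202 near so (56.8).

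Short motifs were looked for in the 100 bp to each side of a summit, reading either strand. The letters were TATCGATA for the DNA replication element (DRE), GGTCACACT for motif 1, GAGAG for the Trl (GAGA factor) site, CAGGTA for Zelda, TGANTCA for AP-1, GCCAT for Pho, CACGTG for the E-box, TATAAA for the TATA box, TCAGT for the initiator and CGATA for BEAF-32. Every DRE match also holds a BEAF-32 match.
No lncRNA-only peak had the DRE (0 of 143, which allows a share of up to 2.10% at 3 counts), against 142 of 2819 coding-only peaks (5.04%), 10 of 3136 peaks at neither start (0.319%) and 2.5% of all pooled peaks. In the replicate lists, the DRE share was 0% in replicate 1 and 1.09% in replicate 2 for lncRNA-only peaks, against 5.47% in replicate 1 and 5.41% in replicate 2 for coding-only peaks and 0.224% in replicate 1 and 0.462% in replicate 2 for peaks at neither start. The low share at lncRNA starts was thus near that of peaks away from all starts. The BEAF-32 letters, in turn, lay in 18.2% of lncRNA-only peaks (12.7 to 25.3%), 33.9% of shared peaks, 32.3% of coding-only peaks (30.6 to 34.1%), 628 of 3136 peaks at neither start (18.7 to 21.5%) and 25.7% of all peaks. In the replicates the lncRNA-only share was 21.4% in replicate 1 and 19.6% in replicate 2, the coding-only share 34.9% in replicate 1 and 32.8% in replicate 2, and the share at neither start 21.9% in replicate 1 and 21.4% in replicate 2. Here, too, lncRNA-only peaks had nearly the share of peaks away from all starts. Both motifs are known from promoters of broadly active fly genes. Motif 1, also known from such promoters, was in 1.40% of lncRNA-only peaks and 1.93% of all peaks. It was in 3.83% of coding-only peaks and 0.223% of peaks at neither start. The lncRNA-only share lay between these but rests on 2 peaks.
For the 4 more common of the other motifs the lncRNA-only shares lay near those of the whole list. The Trl site was in 37.8% of lncRNA-only peaks (30.2 to 45.9%) and 33.2% of all peaks, the initiator in 38.5% and 34.9%, the Pho site in 31.5% and 29.8%, and the TATA box in 22.4% and 21.2%. The Zelda site was in 5.59% and 4.52%, the AP-1 site in 3.50% and 4.39%, and the E-box in 2.10% and 2.79%. These 3 rest on 8, 5 and 3 lncRNA-only peaks and were unsteady: Zelda was at 8.16% in replicate 1 and 3.26% in replicate 2, AP-1 at 2.04% in replicate 1, 3.26% in replicate 2 and 0.971% in the conservative list, and the E-box at 4.08% in replicate 1 and 2.17% in replicate 2. AP-1 is a known partner of chameau in fly development. All such matches are descriptions of letters and say nothing of binding, and the differences between shares were not tested. Median GC content around the summit was 44.8% in lncRNA-only peaks, 44.8% in coding-only peaks and 43.8% in all peaks.

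**Figure D5:**
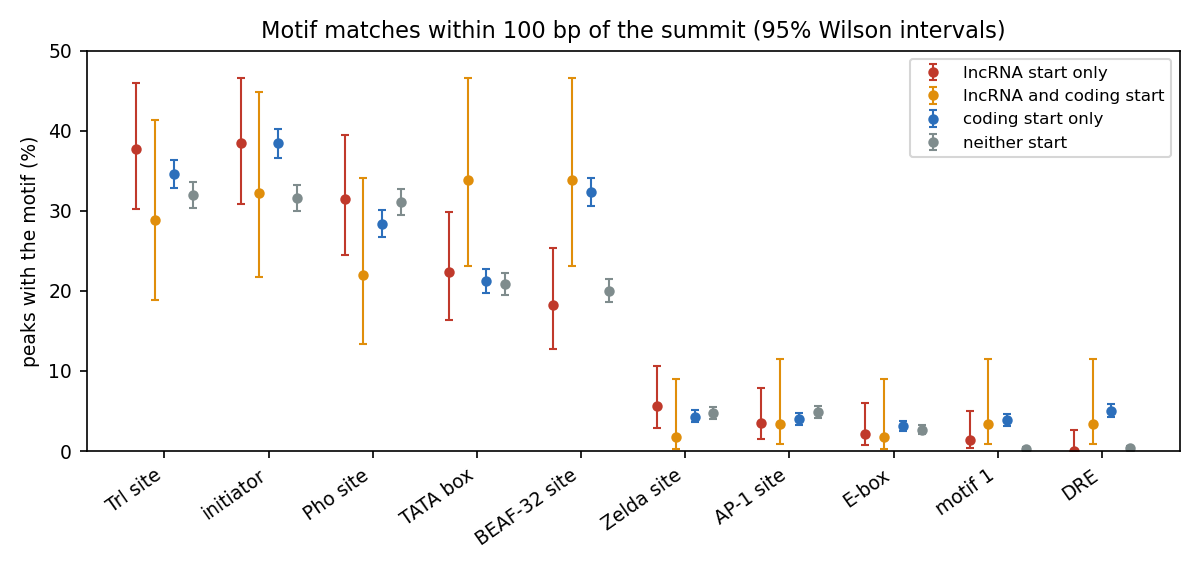
Share of peaks in percent (y axis) with each of 10 motifs (x axis) within 100 bp of the summit, for lncRNA-only, shared, coding-only and other peaks, with 95% Wilson intervals as bars. The lncRNA-only share lies below the coding-only share and near that of other peaks for the BEAF-32 letters (18.2% in lncRNA-only, 32.3% in coding-only) and the DRE (0% in lncRNA-only, 5.04% in coding-only), and within a few percentage points of the coding-only share for the Trl site and the initiator.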

How the data were processed

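Peak lists on dm6 of 2 replicates of 1 group were used as deposited. For aligner and caller, the sources used here give no name, and depth is unknown. The signal column deposited by the authors is a score from their peak caller, without a stated scale. Another deposited score is the IDR on a scaled axis, whose lowest value in the pooled list was 830. Further inputs named in the deposited file notes are not described there.

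Computed here (Python 3.11.15, pandas 2.3.3, numpy 2.4.6, scipy 1.17.1): summits were placed on Ensembl release 115 gene models (BDGP6.54) on the chromosome arms, leaving out 19 pooled peaks elsewhere from base and motif shares. The start of a gene is its 5' end, and coding starts used for the classes are those of all transcripts. A pooled peak counts as present in another list when its summit lies in a peak there. Counting was tested on simulated data. Shares have 95% Wilson intervals, which cover counting error. Signals were compared within lists. The genes named were the 15 strongest lncRNA-only peaks, the 8 strongest shared peaks, 30 listed lncRNA genes, 3 members to each side of the 500 bp limit and neighbours of Hox genes. The microRNA precursor genes, the groups of peaks and the neighbours of other listed genes were named after their values were seen. Members and lists were chosen with earlier results of these data known.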

Additional observations from a re-analysis of the deposited data

How the results depend on the processing

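The alternatives were the conservative list, each replicate's list alone, windows of 250 and 1000 bp, all transcript starts of lncRNA genes, added asRNA genes, the stronger 50% of peaks, ranked lists of any rank and a motif window of 50 bp; single-replicate motif shares were added after seeing the data. Of the values that answer the main questions, 24 moved by less than the replicate spread or within 1.5 times for counts, and 26 moved further. For the share in both replicates, the limit was its Wilson interval instead. Of 40 motif values, 21 moved. The 202 peaks at lncRNA starts became 118 at 250 bp, 339 at 1000 bp and 117 in the stronger 50%. The 143 lncRNA-only peaks became 89 at 250 bp, 76 in the stronger 50% and 92 to 98 in single replicates. The share of all lncRNA genes with a peak (9.40%) became 6.99% (conservative), 6.47 to 6.52% (single replicates), 6.06% (250 bp), 14.3% (1000 bp), 9.71% (all transcript starts), 9.84% (asRNA genes) and 5.86% (stronger 50%). The share away from coding starts (7.93%) became 5.86%, 5.09 to 5.62%, 5.03% and 11.7% under the first 4 of these, 7.44% with asRNA genes and 4.67% in the stronger 50%. The median signal over the list's median (1.04) was 1.01 in the conservative list, 0.967 to 1.01 in single replicates and 0.931 at 250 bp, so its side of 1 depends on the list and window. The upstream share of summits (42.0%) was 42.9 to 50% in single replicates. The share in both replicates (33.6%) was 90.2% in ranked lists of any rank, where it was 87.7% for all pooled peaks. The cause was not tested, except that a narrower window or fewer peaks lower counts by construction. The unknown depth limits what a gene without a peak shows.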
